A study of Homo sapiens with 6 samples.

Results

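The MAP kinase phosphatases are the dual-specificity phosphatases (DUSPs) that switch off the MAP kinases, and their transcripts were examined here in A549 cells, a widely used lung adenocarcinoma line of human origin. The members were the 10 genes DUSP1, DUSP2, DUSP4, DUSP5, DUSP6, DUSP7, DUSP8, DUSP9, DUSP10 and DUSP16. They were chosen by symbol, and all 10 of them were found among the 32192 genes of the count table and the 31951 genes of the FPKM table (fragments per kilobase of transcript, scaled to the mapped fragments of the library). RNA was sequenced from 3 libraries of cells carrying the APEX1 overexpression plasmid (APEX1-OE) and from 3 libraries of cells with the control plasmid (Ctrl). The plasmid was pIRES-hrGFP-1a, which adds a FLAG tag to the end of APEX1, and it was introduced by transient transfection into a single cell line. The study says in general that its experiments were repeated, but not that the libraries of a group came from separate cultures, so the p values measure only the spread between these libraries, which may be technical.

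A MAP kinase is activated when a MAP kinase kinase adds phosphates to a threonine and a tyrosine of its activation loop, and a MAP kinase phosphatase removes both. DUSP1, DUSP2, DUSP4 and DUSP5 are nuclear enzymes whose genes are induced quickly by growth factors and stress. DUSP6, DUSP7 and DUSP9 are cytoplasmic enzymes that act mainly on ERK, and DUSP8, DUSP10 and DUSP16 act mainly on JNK and p38. Since several of these genes are themselves induced by ERK signaling, the family forms a negative feedback loop. APEX1 is a DNA repair endonuclease that also keeps transcription factors such as AP-1 in a reduced, DNA-binding state, and the comparison of APEX1-OE with Ctrl asks whether the transcripts of the phosphatases differ when APEX1 is raised.

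A few short promoter elements were looked for close to the start sites of these genes. RefSeq promoter windows around the start site, on GRCh38.p14, were searched for 8 of the members (10 windows, since DUSP9 and DUSP10 have a pair each). All windows had the same short length, and that of DUSP1 ran from 172771146 to 172771445 on chromosome 5. DUSP4 was left out of the search, and no window was found for DUSP5. The cyclic AMP response element (CRE, TGACGTCA) was present in the windows of DUSP1 and DUSP8 and in 1.85% of all 35116 promoter windows of the same length. The windows around these elements are printed because they set DUSP1 and DUSP8 apart from the other members searched. They are shown on the strand of the gene, with the element in capitals.
DUSP1, chr5:172771303-172771330, minus strand, element at position -125 from the start site: gcagggcgggTGACGTCAccgccccgtc
DUSP8, chr11:1572372-1572399, minus strand, element at position -118: cgggctccgcTGACGTCAcctgcccccg
DUSP8, chr11:1572328-1572355, minus strand, element at position -74: tggctgcaggTGACGTCAggggcttttt
The DUSP1 window also held a TATA box (TATAAA), printed here because no other member searched had one. All windows held a TATA box in 11.5% of cases.
DUSP1, chr5:172771209-172771236, minus strand, box at position -30: cagaggccgcaTATAAAcgcgctccccg
An E-box (CACGTG) lay in the windows of DUSP1 and DUSP2, against 7.26% of all windows. The AP-1 element (TGANTCA), the ETS element (CCGGAAGT) and the CArG box were in none of the 10 member windows, and in 7.71%, 4.14% and 1.29% of all windows. At shares this low, absence from 10 windows does not set the members apart from other genes. Both strands were searched, and of these elements only the CArG box can contain another, the TATA box. A match or its absence describes these letters in this window only.

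The libraries held between 28131955 and 41009197 counts. APEX1 itself stood at 618, 680.3 and 768 FPKM in the APEX1-OE libraries and between 124 and 129 FPKM in Ctrl, with transcripts of the plasmid and of the chromosomal gene counted together. The epithelial markers were abundant (summed FPKM from 5004 to 6511 in APEX1-OE and from 4647 to 6202 in Ctrl, mostly KRT8 and KRT18), although EPCAM was at or below 0.52 FPKM in every library. The markers of blood cells, fibroblasts and endothelial cells summed to at most 3.78, 0.76 and 0.04 FPKM. The first principal component of log2 CPM (counts scaled to the library total after TMM adjustment) held 72.6% of the variance and did not separate the conditions. On one side, called side A, lay replicate 1 of APEX1-OE with replicates 1 and 2 of Ctrl, and on the other, side B, lay replicates 2 and 3 of APEX1-OE with replicate 3 of Ctrl. The comparison of the conditions is therefore also given with the side as a term in the fit, a term added once the data had been seen. The side was taken from the same counts, so intervals and p values from that fit may be too optimistic.

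The family was dominated by a few members. In FPKM, which allows levels of different genes to be compared per length, DUSP1 was the most abundant, with a mean of 187 ± 20.0 (SD, n = 3 libraries) in Ctrl, above 98.5% of the 18441 genes with a mean of at least 0.1 FPKM there. DUSP4 followed with 49.2 ± 6.79, DUSP5 with 37.0 ± 2.48 and DUSP16 with 22.1 ± 6.39 FPKM (SD, n = 3). The other 6 members lay far lower, from 2.87 ± 0.470 for DUSP7 to 0.307 ± 0.0833 for DUSP2. The mean of DUSP16 was 7.72 times that of DUSP7, which came next in the order.

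**Figure D1:**
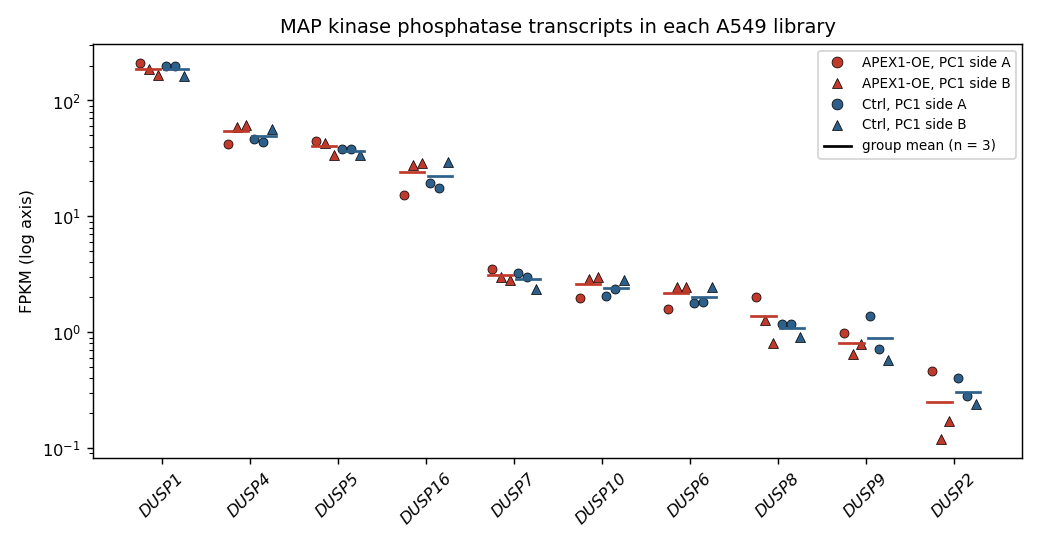
FPKM (log axis) of each member in each of the 6 libraries, with red for APEX1-OE, blue for Ctrl, circles for side A, triangles for side B of the first principal component (PC1) and short bars for the group means. DUSP1 lies between 164 and 211 FPKM in all libraries, and the points of both groups intermingle for every member.

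Not every neighbour in this order was separated. DUSP1 exceeded DUSP4, DUSP5 exceeded DUSP16, DUSP16 exceeded DUSP7 and DUSP9 exceeded DUSP2 without overlap of their ranges over the 6 libraries. DUSP4 exceeded DUSP5 in 5 of 6 libraries, with overlapping ranges. DUSP7 and DUSP10 changed places between libraries, DUSP7 being higher in 4 of 6, and DUSP10 was above DUSP6 in 6 of 6 libraries although the ranges overlapped. DUSP8 and DUSP9 could not be ordered beyond their spread either, with DUSP8 higher in 5 of 6.

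DUSP1 and DUSP4 changed order between libraries in counts, but not in FPKM. DUSP1 made up 55.2% to 65.3% of the summed FPKM of the 10 members in a library, and DUSP4 13.04% to 20.5%. In raw counts DUSP1 took 31.7% to 44.3% and DUSP4 31.8% to 42.3%. DUSP1 was ahead in each library of side A (44.3% against 31.8% in APEX1-OE replicate 1). DUSP4 was ahead in each library of side B (42.3% against 31.7% in APEX1-OE replicate 3). Of the deposited values, DUSP4 had 3.66 times as many counts per unit of FPKM as DUSP1, and its canonical transcript in GENCODE release 44 is 2.76 times as long. The part of length in these shares was not tested.

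Among the nuclear members, DUSP1, which acts on p38, JNK and ERK, lies on the minus strand of chromosome 5 of GRCh38, from 172768096 to 172771195. It stood at 211, 189 and 165 FPKM in the APEX1-OE libraries, given in the order of their replicate numbers here and below, and at 198, 199 and 164 FPKM in the Ctrl libraries. The ranges of the groups overlapped, with APEX1-OE replicate 1 above every Ctrl library, and the lowest values were those of replicate 3 in both groups. DUSP4, which acts on ERK and JNK, lies on chromosome 8 from 29333064 to 29350684. It stood at 42.3, 58.9 and 61.3 FPKM in the APEX1-OE libraries and at 46.7, 44.05 and 56.9 FPKM in the Ctrl libraries. Here the higher values were those of APEX1-OE replicates 2 and 3 and of Ctrl replicate 3, which are the libraries of side B.

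DUSP5, a nuclear phosphatase specific for ERK, lies on the plus strand of chromosome 10 from 110497907 to 110511533. It stood at 44.5, 43.2 and 34.05 FPKM in APEX1-OE and at 38.4, 38.35 and 34.1 FPKM in Ctrl. DUSP2, best known from activated lymphocytes, lies on chromosome 2 from 96143169 to 96145440 and was the sparsest member. It had 28, 10 and 12 counts in the APEX1-OE libraries and 23, 20 and 18 in the Ctrl libraries. The exact Poisson interval (95%) of the lowest count, 10, ran from 4.8 to 18.4 and that of the highest, 28, from 18.6 to 40.5, which covers counting error only, and these intervals did not overlap.

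Among the cytoplasmic members, DUSP6, a feedback phosphatase of ERK, lies on chromosome 12 from 89347235 to 89352501. It stood at 1.59, 2.46 and 2.48 FPKM in APEX1-OE and at 1.79, 1.82 and 2.45 FPKM in Ctrl, again higher in the libraries of side B. An antisense gene (ENSG00000274021) shares 1105 exonic bases with DUSP6 and had 14 to 46 counts, and without a stated use of strand in counting their reads cannot be told apart. DUSP7 lies on chromosome 3 from 52048919 to 52056571 and stood at 3.50, 2.98 and 2.82 FPKM in APEX1-OE and at 3.27, 2.98 and 2.35 FPKM in Ctrl. DUSP9 lies on the X chromosome from 153642492 to 153651326 and stood at 0.99, 0.65 and 0.79 FPKM in APEX1-OE and at 1.38, 0.72 and 0.58 FPKM in Ctrl. Ctrl replicate 1 was the highest library for DUSP9 (118 counts, Poisson interval 97.7 to 141.3).

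Among the members directed at JNK and p38, DUSP16 lies on chromosome 12 from 12473282 to 12562863. It stood at 15.3, 27.8 and 28.7 FPKM in APEX1-OE and at 19.6, 17.4 and 29.4 FPKM in Ctrl, so that APEX1-OE replicate 1 was the lowest library and Ctrl replicate 3 the highest. DUSP10 lies on chromosome 1 from 221701424 to 221742089 and stood at 1.97, 2.91 and 2.98 FPKM in APEX1-OE and at 2.06, 2.38 and 2.83 FPKM in Ctrl. DUSP8 lies on chromosome 11 from 1554051 to 1572271 and stood at 2.03, 1.27 and 0.81 FPKM in APEX1-OE and at 1.19, 1.18 and 0.91 FPKM in Ctrl. APEX1-OE replicate 1 was thus the highest library for DUSP8, while APEX1-OE replicate 3 was the lowest. Processed pseudogenes of DUSP8 and DUSP5 were listed with few counts (6 to 25 for DUSP8P5 and 2 to 18 for DUSP5P1), and how reads were divided between these copies is not stated.

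The members divided into a set that was higher and a set that was lower in the libraries of side B. The values of log2 CPM on the sides did not overlap for 9 of the 10 members, against 66.4% of all tested genes. DUSP4, DUSP6, DUSP10 and DUSP16 were higher on side B, by 0.23 for DUSP4 to 0.54 for DUSP16 in mean log2 CPM. DUSP1, DUSP2, DUSP7, DUSP8 and DUSP9 were lower on side B, with differences from -0.42 for DUSP1 to -1.19 for DUSP2. DUSP5 differed by -0.32 and was the member whose sides overlapped. The sides were found in the same counts, members included, so these differences are a description with no test.

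**Figure D2:**
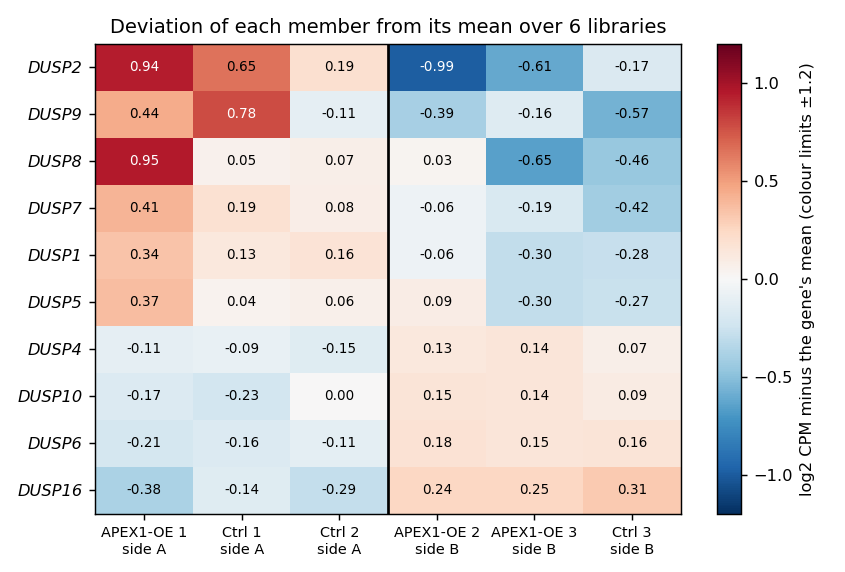
Log2 CPM of each member minus its own mean over the 6 libraries, with libraries ordered by side of the first principal component and members by the difference between sides. The upper 6 members run from high on the left to low on the right, for example DUSP8 from 0.95 in APEX1-OE replicate 1 to -0.65 in APEX1-OE replicate 3, and the lower 4 members run the other way.

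The same division was seen within each condition. Between the Ctrl libraries alone, replicate 3 differed from the mean of replicates 1 and 2 by 0.53 in log2 CPM for DUSP16, 0.30 for DUSP6, 0.21 for DUSP10 and 0.18 for DUSP4. The difference was -0.42 for DUSP1, -0.55 for DUSP7 and -0.91 for DUSP9. Between the APEX1-OE libraries alone, the mean of replicates 2 and 3 differed from replicate 1 by 0.63 for DUSP16, by -0.52 for DUSP1 and by -1.26 for DUSP8. As a result the ratio of DUSP4 to DUSP1 in FPKM was 0.200, 0.235 and 0.221 in the libraries of side A and 0.312, 0.372 and 0.347 in those of side B. The ratio of DUSP16 to DUSP5 was 0.343, 0.509 and 0.455 on side A and 0.644, 0.844 and 0.863 on side B.

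The GC content of the transcripts moved with this division. The 4 members that were higher on side B had canonical transcripts with 45.3% (DUSP10), 46.5% (DUSP6), 47.4% (DUSP16) and 51.4% (DUSP4) GC. The 6 members that were lower on side B had 55.2% (DUSP1), 55.8% (DUSP5), 59.1% (DUSP7), 63.9% (DUSP2), 65.6% (DUSP9) and 66.3% (DUSP8) GC. Over all 16746 tested genes with a canonical transcript, the median difference between sides fell from class to class, from 0.87 in log2 CPM below 40% GC through 0.60 (40% to 45%), 0.21 (45% to 50%), -0.16 (50% to 55%), -0.42 (55% to 60%) and -0.58 (60% to 65%) to -0.69 from 65% upward. DUSP4, at 0.23, lay on the other side of 0 from the median of its class, -0.16. DUSP16 (0.54 beside 0.21) and DUSP2 (-1.19 beside -0.58) lay furthest beyond theirs. DUSP6, DUSP7, DUSP8, DUSP9 and DUSP10 also lay further from 0 than their class medians, by less. DUSP1 was at its median, and DUSP5 (-0.32 beside -0.42) was nearer to 0. The part of GC content in the division of the members was not tested.

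**Figure D3:**
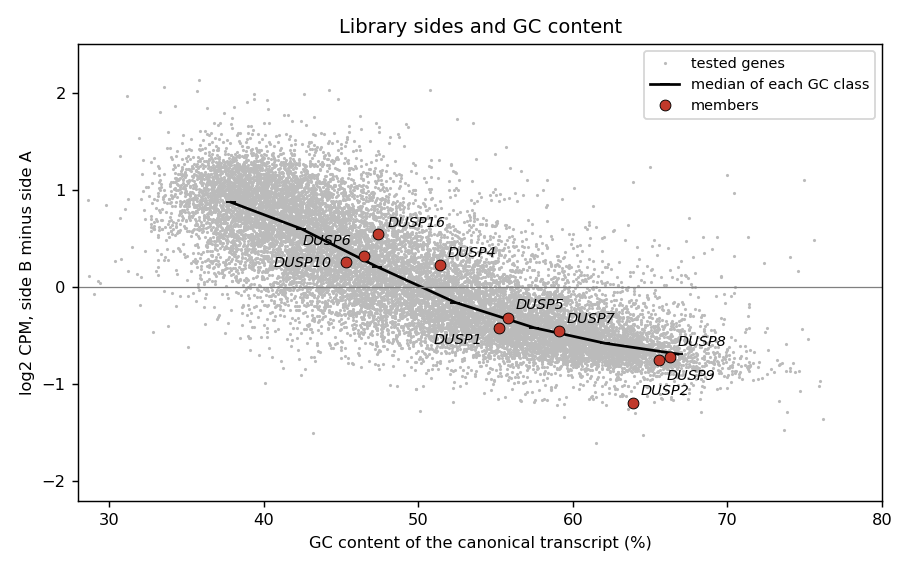
Difference in mean log2 CPM between side B and side A of the first principal component against the GC content of the canonical transcript, with tested genes in grey, the median of each GC class as a black line and the members in red. The members run from above 0 at low GC (DUSP10 at 0.26, DUSP6 at 0.32) to below 0 at high GC (DUSP8 at -0.72, DUSP9 at -0.75). DUSP4 and DUSP16 lie furthest above the line of class medians and DUSP2 furthest below it.

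APEX1 overexpression was accompanied by no called change in a MAP kinase phosphatase. Of the 10 members, all of which passed the filter on low counts, 0 were called at 0.05 in edgeR's quasi-likelihood test after Benjamini-Hochberg adjustment over the 16971 tested genes, of which 0.00589% were called. Without adjustment 0 members passed 0.05 either, against 0.695% of all tested genes. DESeq2 gave 0 members at both thresholds, and so did limma on log2(FPKM + 1), where 0.0054% of the genes were called and 1.23% passed 0.05 without adjustment. The groups overlapped for every member, whereas they did not overlap for 3.39% of all tested genes (1.38% higher and 2.01% lower in APEX1-OE). The exact two-sided permutation test on FPKM, which cannot go below p = 0.1 with 3 libraries against 3, gave the members p values from 0.4 (DUSP5) to 1.0 (DUSP16). The log2 fold changes of the members lay between -0.30 (DUSP2) and 0.35 (DUSP8), with a median of 0.086 beside 0.033 over all tested genes.

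The intervals give the precision that these libraries allowed. For the abundant members the log2 fold change was 0.0027 (95% interval -0.52 to 0.53) for DUSP1, 0.11 (-0.28 to 0.51) for DUSP4, 0.13 (-0.39 to 0.65) for DUSP5 and 0.084 (-0.50 to 0.67) for DUSP16. For the scarce ones it was 0.083 for DUSP6, 0.087 for DUSP10 and 0.10 for DUSP7, with standard errors of 0.231, 0.227 and 0.272. DUSP8 was at 0.35 (-0.60 to 1.29), DUSP9 at -0.14 (-1.07 to 0.79) and DUSP2 at -0.30 (-1.63 to 1.02), so that a 2-fold change lay inside the intervals of these 3 members and outside those of the other 7. In edgeR's quasi-likelihood test each of the 10 members had an adjusted p of 1.0.

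The summed expression of the family also stayed within the spread between libraries. The 10 members together came to 324, 329 and 299 FPKM in the APEX1-OE libraries and to 313, 308 and 294 FPKM in the Ctrl libraries. In CPM after TMM adjustment the sums were 1330, 1284 and 1189 in APEX1-OE and 1234, 1215 and 1175 in Ctrl. Scaled to the library total alone, they were 1209, 1330 and 1256 in APEX1-OE and 1180, 1164 and 1289 in Ctrl, which changes the order of the libraries. The groups overlapped on each of these scales.

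With the side as a term the intervals became narrower, and those of 3 members no longer included 0. DUSP8 was then at 0.56 (95% interval 0.13 to 0.98, unadjusted p = 0.0119), DUSP7 at 0.29 (0.029 to 0.55, unadjusted p = 0.0318) and DUSP5 at 0.25 (0.022 to 0.48, unadjusted p = 0.0330). None of the 10 members was called, the lowest adjusted p being 0.364 for DUSP8 in edgeR's quasi-likelihood test. These 3 of 10 members with an unadjusted p under 0.05 stand beside 11.6% of all tested genes in the same fit, of which 0.0236% were called. The side was taken from the same counts, members included, so the intervals and p values of this fit are a description with no test. DUSP1 was at 0.15 (-0.039 to 0.34, unadjusted p = 0.110) and DUSP4 at 0.041 (-0.13 to 0.21, unadjusted p = 0.624). DUSP16 was at -0.11, DUSP6 at -0.031 and DUSP10 at -0.00098, each below 0 where the fit with the condition alone had placed it above.

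**Figure D4:**
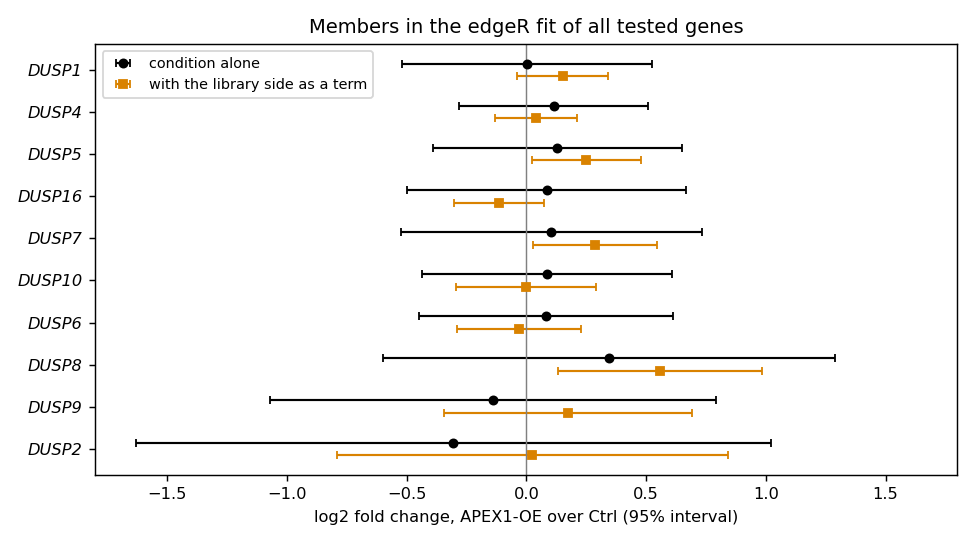
Log2 fold change of each member with its 95% interval from edgeR's quasi-likelihood fit of all tested genes, with the condition alone (black) and with the library side as a further term (orange). All black intervals include 0, and the orange intervals of DUSP5, DUSP7 and DUSP8 lie above it. The side was taken from the same counts, so the orange intervals may be too narrow and are a description with no test.

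Within the sides, DUSP8 differed mainly on side A. In log2 CPM, APEX1-OE replicate 1 exceeded the mean of Ctrl replicates 1 and 2 by 0.88 for DUSP8, 0.32 for DUSP5, 0.27 for DUSP7 and 0.20 for DUSP1. On side B, the mean of APEX1-OE replicates 2 and 3 exceeded Ctrl replicate 3 by 0.15 for DUSP8, 0.16 for DUSP5, 0.30 for DUSP7 and 0.098 for DUSP1. DUSP2 differed in opposite directions, by 0.52 on side A and -0.63 on side B. Each of these comparisons has a single library in 1 of its arms and carries no test. Without APEX1-OE replicate 1 the fit with the condition alone placed DUSP8 at -0.19 and DUSP1 at -0.21, and DUSP2 at -1.18 (unadjusted p = 0.020, adjusted p = 0.507, edgeR's quasi-likelihood test). The APEX1-OE libraries left in that fit were all of side B, while Ctrl held both sides, so these values also carry the difference between sides. In that fit 1324 tested genes had an unadjusted p under 0.05, against 118 with all libraries.

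Genes around the phosphatases in the pathway were read from the same fit in 5 lists. Of the 49 list genes analysed here, 47 were tested and 0 were called by edgeR's quasi-likelihood test, by DESeq2 or by limma on log2(FPKM + 1). An unadjusted p under 0.05 was reached by 2 of them with edgeR (against 0.695% of all tested genes), 2 with DESeq2 and 1 with limma. With the side as a term it was reached by 14 of the 47, 13 of them higher in APEX1-OE, which is 29.8% beside 11.6% of all tested genes, and 0 were called. Of the 47 genes, 38 had a positive log2 fold change, with a median of 0.079. This was 80.9% of the list genes, against 57.5% of all tested genes. The lists were chosen with earlier results of these data known, so such shares carry no test. The groups did not overlap for 4 of them, SPRY2, PHLDA1, EGR1 and PTPRR, all higher in APEX1-OE, where 1.38% of all tested genes stood in that way (PHLDA1, a growth factor response gene, is named after its values were seen).

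The MAP kinases that the phosphatases act on had, over 10 tested genes, a median log2 fold change of 0.046, and of 0.011 with the side as a term. The ends of this list were MAPK13, a p38 kinase with 3 to 22 counts, at 0.49 (standard error 0.585; 0.31 with the side as a term), and MAPK3, which encodes ERK1, at -0.11 (standard error 0.325; 0.14 with the side as a term). MAPK3 followed the sides, with 13.4, 8.38 and 9.40 FPKM in APEX1-OE and 13.8, 11.4 and 8.43 FPKM in Ctrl. The MAP kinase kinases had a median of 0.0058 over 7 genes (0.095 with the side as a term). They ran from -0.13 for MAP2K1, which activates ERK, to 0.25 for MAP2K4, which activates JNK, and with the side as a term these genes were at -0.20 and -0.056. The Sprouty and SPRED inhibitors, which restrain the pathway upstream, had a median of 0.13 over 6 genes (0.10 with the side as a term). In this list SPRY2 stood at 1.93, 2.16 and 1.89 FPKM in APEX1-OE and at 1.63, 1.54 and 1.64 FPKM in Ctrl, groups that did not overlap, with a log2 fold change of 0.30 (standard error 0.218, unadjusted p = 0.207 from edgeR's quasi-likelihood test) and of 0.35 with the side as a term (unadjusted p = 0.0303). SPRED2 was at the low end with 0.027, and at -0.085 with the side as a term.

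The ERK output genes outside the DUSP family had the highest median of the lists, 0.24 over 11 genes (0.29 with the side as a term). EGR1, an immediate early transcription factor, stood at 4.81, 4.44 and 2.66 FPKM in APEX1-OE and at 1.95, 2.14 and 2.12 FPKM in Ctrl. The groups did not overlap, and APEX1-OE replicate 3 came closest to Ctrl. Its log2 fold change was 0.95 (standard error 0.310, unadjusted p = 0.0161, adjusted p = 1.0, edgeR's quasi-likelihood test), and 1.05 with the side as a term (unadjusted p = 6.74e-05, adjusted p = 0.0954). FOSL1, an AP-1 subunit named after its values were seen, had a log2 fold change of 0.66 (unadjusted p = 0.119) and of 0.89 with the side as a term (unadjusted p = 6.65e-05, adjusted p = 0.0954 from the same test). It stood at 36.9, 27.4 and 16.35 FPKM in APEX1-OE and at 18.9, 19.3 and 13.3 FPKM in Ctrl, so the groups overlapped. With the side as a term, 6 of the 11 genes had an unadjusted p under 0.05, all of them higher in APEX1-OE, against 8.61% of all tested genes that did so in that direction. With the condition alone, 1 of the 11 did. The list and the side term were chosen with results of these data known, so these shares are a description with no test.

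The other dual-specificity phosphatases and the tyrosine phosphatases that bind MAP kinases had a median of 0.058 over 13 tested genes (0.11 with the side as a term). PTPRR, a receptor-type tyrosine phosphatase of ERK, had 10, 31 and 14 counts in APEX1-OE and 5, 9 and 3 counts in Ctrl, groups that did not overlap, at FPKM values of at most 0.15. Its log2 fold change was 1.52 (standard error 0.538, unadjusted p = 0.0194, adjusted p = 1.0, edgeR's quasi-likelihood test), and 1.58 with the side as a term (unadjusted p = 0.00972, adjusted p = 0.362).

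**Figure D5:**
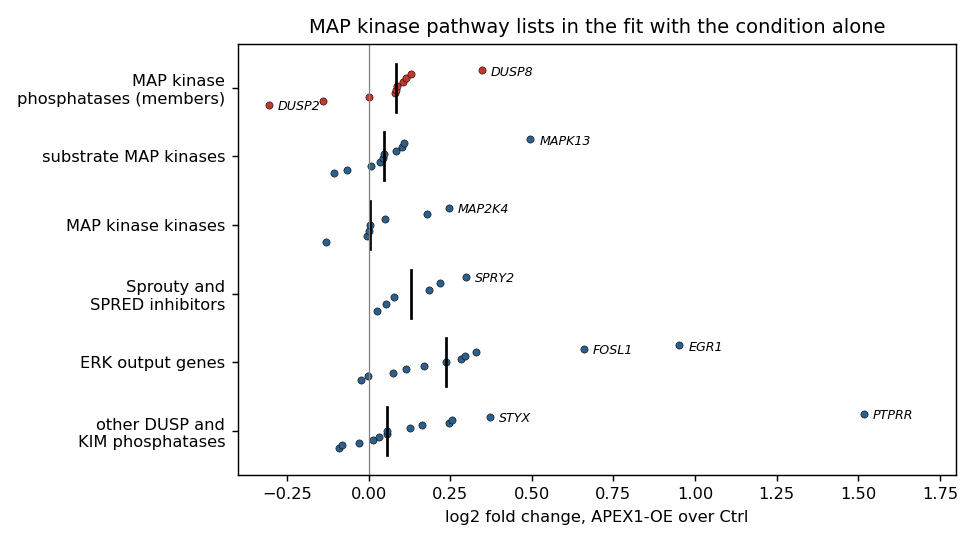
Log2 fold change (APEX1-OE over Ctrl, condition alone) of each tested gene in the members (red) and in 5 lists of pathway genes (blue), with black bars at the medians. The members lie between -0.30 and 0.35, EGR1 at 0.95 and PTPRR at 1.52 stand furthest to the right, and no gene shown was called.

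The profile of DUSP1, the most abundant member, had several near neighbours. By the root mean square difference of log2 CPM over the 6 libraries, each gene centred on its mean, the nearest genes were CCAR2 (0.0146), PLXNB2 (0.0148), MTA2 (0.0178), MFI2 (0.0180) and PDXK (0.0194). All 5 of them ran from high in APEX1-OE replicate 1 (0.32 to 0.38 above their means, 0.35 for DUSP1) to low in APEX1-OE replicate 3. Like DUSP1, they were above their means in the libraries of side A and below them in those of side B. The sides did not overlap for 66.4% of all tested genes, and these 5 were picked as the nearest of all of them outside the members. The range of DUSP1 over the libraries, 0.64 in log2 CPM, was wider than that of 28.4% of the tested genes. DUSP2, with only 10 to 28 counts in a library, had the widest range of the members, 1.93. Its nearest genes were further away, led by RP11-867G23.8 at 0.138 and LLNLR-307A6.1 at 0.153. DUSP4 had the narrowest range, 0.29, wider than that of 5.2% of the tested genes.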

How the data were processed

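Reads from stranded, paired-end mRNA libraries of 6 A549 samples were trimmed by the authors with the FASTX-Toolkit and aligned to GRCh38 with tophat2. The authors deposited raw counts of uniquely mapped reads per gene, not normalized, and FPKM made from the same reads. They counted reads with a tool, annotation and strand setting not given in the sources used here. Groups and replicate numbers came from the sample titles.

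The counts were analysed in R 4.3.3 with edgeR 4.0.16 (filterByExpr with a minimum count of 10 and a minimum total of 15, TMM, robust quasi-likelihood F-test, condition as the only term, Benjamini-Hochberg adjustment at 0.05). Intervals of 95% used the quasi-likelihood standard error. DESeq2 1.42.0 and limma 3.58.1 on log2(FPKM + 1), with a mean FPKM of at least 0.1, were alternatives, with other normalization, filter and pseudocount settings, each library left out, and the replicate number as a block. The edgeR and limma fits of the condition were tested on simulated data, which held no division of the libraries into sides. CPM used TMM-adjusted library sizes, and log2 CPM a prior count of 2. Coordinates, transcript lengths and GC came from GENCODE 44 (canonical transcripts, 98.7% of tested genes) and promoters from RefSeq. The closest pair of libraries, Ctrl replicates 1 and 2, differed by a chi-square per degree of freedom of 3.63, so none was counted as a repeat.

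The members, lists and tests were chosen with earlier results of these data known. Named genes were the members, APEX1, pathway genes called or with an unadjusted p under 0.05, otherwise the ends of each list, and for the member with the widest range and the most abundant one the 5 nearest genes. PTPN5 and SPRY3 were not analysed here, and DUSP26 and PTPN7 did not pass the filter. Splicing was not analysed here.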

Additional observations from a re-analysis of the deposited data

How the results depend on the processing

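No member and no pathway-list gene was called under any of the 14 alternatives, of which the side of the first principal component as a term was chosen after seeing the data. The lowest adjusted p of a member was 0.364. Of the 140 member values, 121 kept their sign. With the side as a term the log2 fold change reversed to 0.024 for DUSP2, -0.031 for DUSP6, 0.17 for DUSP9, -0.00098 for DUSP10 and -0.11 for DUSP16, and with the replicate block it reversed to -0.0088 for DUSP1; the cause was not tested.

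Leaving out single libraries, the log2 fold change lay between -0.21 and 0.14 for DUSP1, -1.18 and 0.087 for DUSP2, 0.061 and 0.18 for DUSP4, -0.056 and 0.29 for DUSP5, 0.0065 and 0.19 for DUSP6, and -0.11 and 0.22 for DUSP7. It lay between -0.19 and 0.65 for DUSP8, -0.42 and 0.32 for DUSP9, -0.012 and 0.17 for DUSP10, and -0.046 and 0.28 for DUSP16.

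The number of tested genes called was 1, which was APEX1 (log2 fold change 2.42). It was 4 with the side as a term, 10 without a filter on low counts, 2 with limma on log2(FPKM + 0.1) and 0 to 1 with a library left out. APEX1 then lay between 2.36 and 2.46, with an adjusted p from 0.00149 to 0.210 from edgeR's quasi-likelihood test, and was not called when replicate 2 (0.118) or 3 (0.0674) of APEX1-OE, or replicate 1 (0.210) or 2 (0.208) of Ctrl, was left out.

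With the replicate block 2 genes were called. Libraries with the same replicate number were not always alike. Their deviations from the group means correlated at 0.607, -0.521 and 0.700 for the pairs numbered 1, 2 and 3. APEX1-OE replicate 1 correlated best with Ctrl replicate 2 (0.636). These values follow the sides and cannot show whether libraries of the same number were handled together.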
